A study of Mus musculus with 19 samples.

Results

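Nucleoside transporters carry adenosine, other nucleosides and nucleoside drugs across cell membranes. The 7 mouse genes described here are the Slc28 members Slc28a1, Slc28a2 and Slc28a3 and the Slc29 members Slc29a1, Slc29a2, Slc29a3 and Slc29a4, which are 7 of the 36682 genes in the deposited table of counts and FPKM and were found there by symbol. Slc28a3 was chosen for its values with AP20187 and with vehicle, so those values are given as a description with no test. The other 6 genes were taken as the remainder of both families.

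RNA was sequenced from dorsal root ganglia, which house the cell bodies of sensory neurons outside the spinal cord, of 19 male mice homozygous for the MaFIA transgene, with 1 library per mouse. In MaFIA mice the c-fms (Csf1r) promoter drives a Fas-based suicide receptor, so that the dimerizer AP20187 can trigger apoptosis in macrophages and in any other cell using that promoter. Destabilization of the medial meniscus (DMM) is a knee surgery used as a model of osteoarthritis. Ganglia were taken 8 weeks after DMM from mice given AP20187 (n = 5) or vehicle (n = 5) intraperitoneally on 5 consecutive days, and from age-matched naive mice given AP20187 (n = 4) or vehicle (n = 5). The age itself was not given. All 4 groups carry the transgene, so AP20187 was compared with vehicle only within transgenic animals. The L3, L4 and L5 ganglia of 1 side were pooled per mouse, so each library is an average over all cells of the ganglia.

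The Slc28 proteins are concentrative transporters, which use the sodium gradient to pull nucleosides into a cell against their own gradient. The protein encoded by Slc28a1 prefers pyrimidine nucleosides, that of Slc28a2 prefers purine nucleosides such as adenosine and inosine, and that of Slc28a3 accepts both. The Slc29 proteins are equilibrative transporters, which let nucleosides flow down their gradient in either direction and so help set extracellular adenosine, a ligand that dampens pain signalling through the A1 receptor on sensory neurons.

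The promoters of Slc28a3 and Slc28a2 are shown because these are the members whose levels were higher in the AP20187 groups than in the vehicle groups. Each is the 250 bases before the RefSeq start on the strand of the gene (GRCm38.p6, chr13:58610878-58611127, minus strand, for Slc28a3, and chr2:122426185-122426434, plus strand, for Slc28a2), and the capitals mark AGGAAGT or its reverse complement ACTTCCT, a core bound by ETS-family factors including PU.1 of myeloid cells.
Slc28a3: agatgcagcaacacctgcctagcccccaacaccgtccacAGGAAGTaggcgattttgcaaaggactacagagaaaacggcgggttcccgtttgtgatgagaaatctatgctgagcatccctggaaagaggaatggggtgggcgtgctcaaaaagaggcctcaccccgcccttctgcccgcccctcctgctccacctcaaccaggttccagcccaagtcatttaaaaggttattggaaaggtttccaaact
Slc28a2: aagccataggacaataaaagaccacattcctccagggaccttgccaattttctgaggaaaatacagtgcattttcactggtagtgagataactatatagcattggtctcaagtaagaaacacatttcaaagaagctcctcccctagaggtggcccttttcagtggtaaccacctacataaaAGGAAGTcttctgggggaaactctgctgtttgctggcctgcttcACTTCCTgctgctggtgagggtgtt

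AGGAAGT, searched on both strands, begins 211 bases before the start of Slc28a3 on the gene's strand. In Slc28a2 it lies 69 bases before the start on the gene's strand and, as ACTTCCT, 25 bases before it. The motif was in 2 of the 14 promoters of the 7 genes and in 7.69% of 32851 mouse promoter windows of this length. TTNCNNAA, a C/EBP-type motif, occurred at 2 places in the Slc28a3 window and in 36.8% of all windows, and GGGCGG, the GC box, at 2 places in Slc28a3 and in 32.7% of all windows. Neither was found in the Slc28a2 window, and no match of 1 motif overlapped a match of another in these promoters. These matches describe the letters only.

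The libraries held 60984830 to 74691396 counts each. None of the 11 sensory neuron markers was at 0 in any group, and their summed level was 1425 to 5041 CPM (counts scaled to a common depth with TMM library sizes) in DMM AP20187 mice, 3976 to 9908 in DMM vehicle mice, 1633 to 7382 in naive AP20187 mice and 6265 to 10528 in naive vehicle mice. Mature neutrophil markers summed to 15976 to 27230 CPM in DMM AP20187 mice, 403 to 7849 in DMM vehicle, 7766 to 26881 in naive AP20187 and 843 to 2295 in naive vehicle mice. DMM vehicle mice 63 and 64 carry numbers next to those of the DMM AP20187 mice (58 to 62) and apart from the other 3 (32, 33 and 34). Mice 32, 33 and 34 thus differ from the AP20187 mice in number block as well as in injection. Mouse 64 had the highest neutrophil sum of the vehicle libraries. All genes were therefore also fitted with subsets of these mice. The calls of those fits were read for the transporters and for the pathway genes given with values, except Pnp2 in DMM mice. For the marker lists and other genes they were not read one by one.

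Slc28a3 (ENSMUSG00000021553, chr13:58693213-58758691, minus strand, GRCm39), the broad-specificity concentrative transporter, had counts of 220, 219, 190, 78 and 188 in DMM AP20187 mice 58 to 62. In naive AP20187 mice 1, 3, 4 and 5 it had counts of 124, 109, 44 and 102. It had a count of 0 in all 10 vehicle libraries. Every AP20187 library therefore lay above every vehicle library, in DMM and in naive mice. Gm3131, the gene that overlaps it on the other strand, had at most 2 counts in a library.

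These counts correspond to 2.76 ± 0.904 CPM (SD, n = 5) in DMM AP20187 mice and 1.59 ± 0.605 CPM (n = 4) in naive AP20187 mice. Low counts in these libraries gathered at multiples of 4, which made up 40.7% of counts from 4 to 43, so a count of 0 was taken to allow up to 3 steps, or 12 counts, in a library. That limit is 0.181 CPM in DMM vehicle mice and 0.178 CPM in naive vehicle mice, and it covers counting error only. Against it, Slc28a3 was at least 15.3-fold higher with AP20187 in DMM mice and at least 8.96-fold higher in naive mice. For the AP20187 libraries with the fewest counts, DMM mouse 61 and naive mouse 4, these bounds were 6.46-fold and 4.16-fold. The groups also did not overlap, in the same direction, for 8.71% of the 22778 tested genes in DMM and 9.39% in naive mice. Since these comparisons chose the gene, nothing is read from these shares.

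Between the AP20187 groups, a comparison that did not choose the gene, 4 of 5 DMM mice lay above all 4 naive mice and DMM mouse 61, at 1.17 CPM, lay among them. The log2 fold change of DMM against naive was 0.79 (SE 0.44, adjusted p = 0.395, edgeR quasi-likelihood test with Benjamini-Hochberg adjustment). The difference did not pass the threshold of 0.05, and its interval of 2 SE ran from -0.10 to 1.68.

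Slc28a3 was read beside the markers of myeloid cells. Of 9 mature neutrophil markers, which include the calprotectin genes S100a8 and S100a9, 5 rose with AP20187 in DMM mice and 6 in naive mice. Of 5 granulocyte precursor markers all 5 rose in both. Over all tested genes, 11.3% rose in DMM mice and 8.61% in naive mice. Precursor sums were 1222 to 2625 CPM in DMM AP20187, 30.3 to 404 in DMM vehicle, 319 to 1690 in naive AP20187 and 45.6 to 115 in naive vehicle mice, and no marker of either list was at 0 in any group. DMM vehicle mouse 64 had a neutrophil sum of 7849 CPM with a Slc28a3 count of 0, while naive AP20187 mouse 5 had a neutrophil sum of 7766 CPM with a Slc28a3 count of 102. The precursor sums of those libraries were 404 and 441 CPM, and that of naive AP20187 mouse 4, with a Slc28a3 count of 44, was 319 CPM. The sums of DMM vehicle mouse 64 lie within the range of the naive AP20187 libraries and below that of the DMM AP20187 libraries. The part of these cells in the Slc28a3 level was not tested. In bulk libraries, fewer cells of a type and less RNA per cell cannot be told apart.

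Slc28a2 (ENSMUSG00000027219, chr2:122256958-122291618, plus strand), the purine-preferring concentrative transporter, rose with AP20187 in both surgery groups. Its level was 91.9, 64.8, 54.4, 47.5 and 108 CPM in DMM AP20187 mice 58 to 62. In DMM vehicle mice 32, 33, 34, 63 and 64 it was 2.33, 3.91, 6.66, 7.46 and 17.3 CPM. The naive AP20187 mice 1, 3, 4 and 5 had 64.2, 49.7, 23.1 and 20.7 CPM, and the naive vehicle mice 1 to 5 had 4.53, 3.11, 7.93, 9.08 and 2.73 CPM. No AP20187 library overlapped a vehicle library within a surgery group, and the vehicle library with the most Slc28a2 was DMM mouse 64, at 17.3 CPM.

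The group means of Slc28a2 were 73.3 ± 25.7 CPM in DMM AP20187 (SD, n = 5), 7.54 ± 5.85 in DMM vehicle (n = 5), 39.4 ± 21.1 in naive AP20187 (n = 4) and 5.48 ± 2.88 in naive vehicle mice (n = 5). The log2 fold change of AP20187 against vehicle was 3.28 in DMM mice (SE 0.51, adjusted p = 0.000463, edgeR with Benjamini-Hochberg adjustment). In naive mice it was 2.85 (SE 0.52, adjusted p = 0.00269, the same test). In DMM mice 11.3% of all tested genes rose and in naive mice 8.61%, so genes that rose were common in both comparisons. The AP20187 effect on Slc28a2 differed between DMM and naive mice by 0.43 (adjusted p = 0.948), with an interval of 2 SE from -0.94 to 1.81.

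Slc28a2 was read beside the same myeloid markers and beside other lists. Over all tested genes, 11.3% rose and 12.4% fell in DMM mice, and 8.61% rose and 2.57% fell in naive mice. Across libraries, the DMM vehicle mouse with the highest Slc28a2, mouse 64, was also that with the highest neutrophil sum of its group. Of 9 macrophage markers, 1 rose in DMM mice and 2 in naive mice, and the DMM count is near the share over all tested genes. Their sums were 1866 to 4120 CPM in DMM AP20187, 414 to 3413 in DMM vehicle, 1531 to 2955 in naive AP20187 and 374 to 1279 in naive vehicle mice. Of 6 proliferation markers, 6 rose in DMM and 5 in naive mice, with sums of 787 to 1902, 42.8 to 446, 329 to 996 and 75.0 to 313 CPM in the same order of groups. No marker of these lists was at 0 in any group. Muscle and endothelial markers were read beside Slc28a2 and Slc28a3 as well. Of 6 muscle markers, 2 rose in naive mice and 1 fell in DMM mice, with sums of 16.0 to 142 CPM in DMM AP20187, 13.8 to 1766 in DMM vehicle, 1501 to 2311 in naive AP20187 and 11.5 to 408 in naive vehicle mice. Of 7 endothelial markers, 3 rose in DMM and 2 in naive mice, with sums of 173 to 327, 84.7 to 160, 231 to 525 and 77.7 to 357 CPM in that order. The part of any of these cells in the Slc28 levels was not tested.

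**Figure D1:**
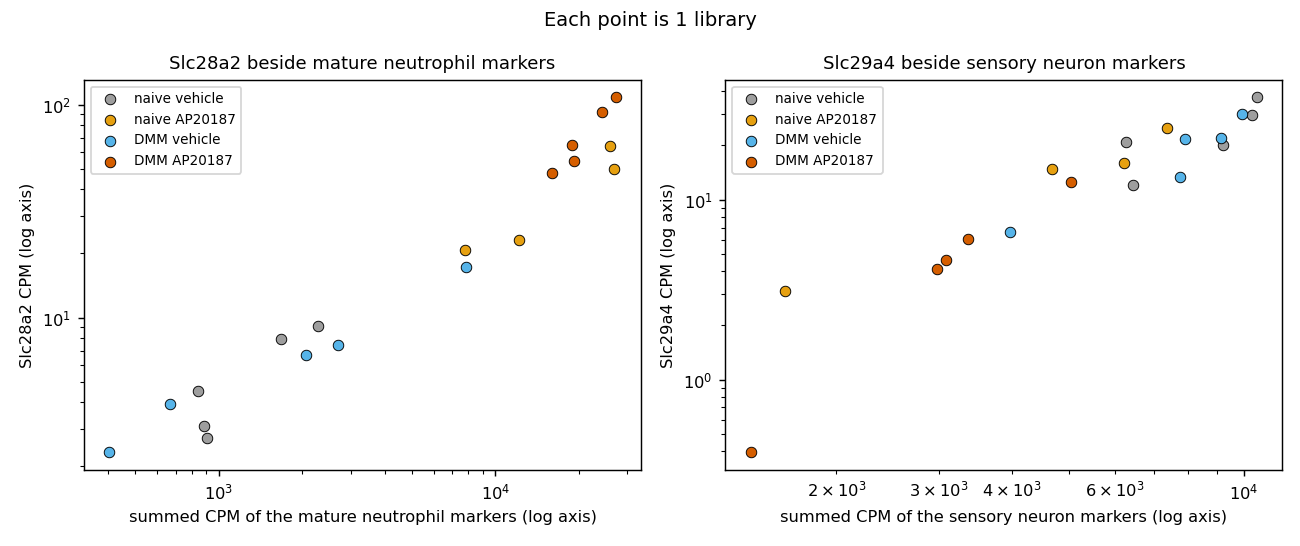
Left, Slc28a2 (y axis, CPM, log scale) against the summed mature neutrophil markers (x axis, CPM, log scale). Right, Slc29a4 against the summed sensory neuron markers on the same kind of axes, with 1 point per library coloured by group. The DMM vehicle library farthest to the right in the left panel, mouse 64 at 7849 CPM, has 17.3 CPM of Slc28a2, and the library with the lowest neuron sum, DMM AP20187 mouse 58 at 1425 CPM, has the lowest Slc29a4, 0.394 CPM.

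Slc28a2b, a neighbouring copy of Slc28a2 that is not among the 7 genes (ENSMUSG00000079071, chr2:122315422-122358521, plus strand), shares 39.8% of the 50-base words of the longest Slc28a2 transcript, so reads can be split between both genes. Its log2 fold change with AP20187 was 2.48 in DMM mice (adjusted p = 0.00790, edgeR) and 2.20 in naive mice (adjusted p = 0.0294). Its counts were 5.90 ± 0.377% of those of Slc28a2 in DMM AP20187 mice and 10.6 ± 3.43% in DMM vehicle mice. The values of Slc28a2b are therefore uncertain, and those of Slc28a2 can hold or lack reads of Slc28a2b to an extent that was not measured. Gm14086, which overlaps Slc28a2 on the same strand, had at most 13 counts in a library. No pair among the 7 genes shared a 50-base word.

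Slc28a1 (ENSMUSG00000025726, chr7:80764547-80820164, plus strand), the pyrimidine-preferring concentrative transporter, was near the detection limit. It had a count of 24 in DMM AP20187 mouse 62, 12 in DMM vehicle mouse 33, 4 in naive vehicle mouse 2 and 0 in the other libraries. Ndufs6b, which overlaps it on the other strand, had up to 33 counts in a library, and with strand use not stated these few counts cannot be told apart from it. The gene did not pass the filter on low counts, so no comparison was made, and any difference was not detectable at this depth.

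Of the 4 equilibrative transporters, Slc29a2 and Slc29a4 fell with AP20187 in DMM mice, and neither call held under every alternative. Slc29a1 and Slc29a3 did not pass in DMM mice, and none of the 4 passed in naive mice. With Slc28a2, 3 of the 5 tested members other than Slc28a3 were called in DMM mice (1 higher, 2 lower), against 23.8% of all tested genes, and 1 of 5 in naive mice, against 11.2%. With DMM vehicle mice 32, 33 and 34 alone the count was 4, since Slc29a3 passed too, and with mice 63 and 64 alone it was 1, Slc28a2. The median log2 fold change of these 5 was -0.41 in DMM mice and -0.22 in naive mice, beside -0.10 and -0.07 over all tested genes.

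Slc29a1 (ENSMUSG00000023942, chr17:45896126-45910532, minus strand), the widely expressed plasma-membrane carrier that takes up adenosine, had the highest mean FPKM of the 7 genes in both vehicle groups. It was at 49.8, 37.9, 34.9, 33.3 and 33.8 CPM in DMM AP20187 mice 58 to 62 and at 42.1, 41.7, 36.5, 52.0 and 60.4 CPM in DMM vehicle mice 32, 33, 34, 63 and 64. In naive mice it ranged from 34.3 to 47.4 CPM with AP20187 and from 37.8 to 51.7 CPM with vehicle, and the groups overlapped in both comparisons. Gm17080, which overlaps it on the other strand, had at most 41 counts in a library. The log2 fold change was -0.29 in DMM mice (SE 0.16, adjusted p = 0.190, edgeR) and -0.22 in naive mice (adjusted p = 0.386), neither past the threshold.

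Slc29a2 (ENSMUSG00000024891, chr19:5073888-5082000, plus strand), an equilibrative carrier that also takes nucleobases, was at 2.35, 1.42, 3.28, 2.88 and 2.43 CPM in DMM AP20187 mice 58 to 62. In DMM vehicle mice 32, 33, 34, 63 and 64 it was at 5.60, 5.51, 5.33, 4.28 and 2.88 CPM. DMM vehicle mouse 64 lay within the AP20187 range and the other 4 lay above it. The log2 fold change was -0.93 (SE 0.32, adjusted p = 0.0392, edgeR), where 12.4% of all tested genes fell. ENSMUSG00000120690, which overlaps Slc29a2 on the other strand, had up to 34 counts in a library, against 97 for Slc29a2 in its lowest library.

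The Slc29a2 call was lost without any filter on low counts (adjusted p = 0.0617), by limma on log2(FPKM + 1) without a filter (adjusted p = 0.0692) and when the vehicle group was only mice 63 and 64 (log2 fold change -0.50, adjusted p = 0.560). It was also lost when any of DMM AP20187 mice 58, 59 or 62 or DMM vehicle mice 32, 33, 34 or 63 was left out, with adjusted p between 0.0509 and 0.0959. In naive mice Slc29a2 was at 4.15 ± 1.87 CPM with AP20187 and 5.57 ± 1.77 CPM with vehicle, a log2 fold change of -0.43 (adjusted p = 0.399).

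Slc29a3 (ENSMUSG00000020100, chr10:60547851-60588561, minus strand) encodes an equilibrative carrier of intracellular membranes, among them lysosomes, whose loss affects macrophages. It was at 22.4, 21.5, 17.1, 23.7 and 24.6 CPM in DMM AP20187 mice 58 to 62. In DMM vehicle mice 32, 33, 34, 63 and 64 it was at 25.5, 37.5, 32.7, 24.3 and 25.4 CPM. Mouse 63, at 24.3 CPM, was the vehicle library that overlapped the AP20187 range.

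The log2 fold change of Slc29a3 in DMM mice was -0.41 (SE 0.15, adjusted p = 0.0527, edgeR) and did not pass. The gene passed without vehicle mouse 63 (adjusted p = 0.0411) or mouse 64 (adjusted p = 0.0319). In naive mice it was at 31.4 ± 4.34 CPM with AP20187 and 32.8 ± 3.68 CPM with vehicle (log2 fold change -0.07, adjusted p = 0.805).

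Slc29a4 (ENSMUSG00000050822, chr5:142678267-142708245, plus strand) encodes the plasma membrane monoamine transporter, which carries serotonin and dopamine as well as adenosine. It was at 0.394, 4.11, 4.62, 12.5 and 6.01 CPM in DMM AP20187 mice 58 to 62. In DMM vehicle mice 32, 33, 34, 63 and 64 it was at 22.1, 29.8, 21.7, 13.4 and 6.64 CPM. The vehicle mice 32, 33, 34 and 63 lay above all AP20187 mice, and mouse 64 lay within their range. The log2 fold change was -1.76 (SE 0.62, adjusted p = 0.0473, edgeR).

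The Slc29a4 call was lost with vehicle mice 63 and 64 alone (log2 fold change -0.83, adjusted p = 0.619), without a low-count filter (adjusted p = 0.0732) and in 14 of the 19 fits that left out 1 library, with adjusted p up to 0.113. Without DMM AP20187 mouse 58, the lowest library, the log2 fold change was -1.46 (adjusted p = 0.0681). In naive AP20187 mice 1, 3, 4 and 5 Slc29a4 was at 14.7, 3.11, 16.0 and 24.9 CPM, and with vehicle it was at 23.8 ± 9.59 CPM (SD, n = 5). The groups overlapped (log2 fold change -0.70, adjusted p = 0.483).

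**Figure D2:**
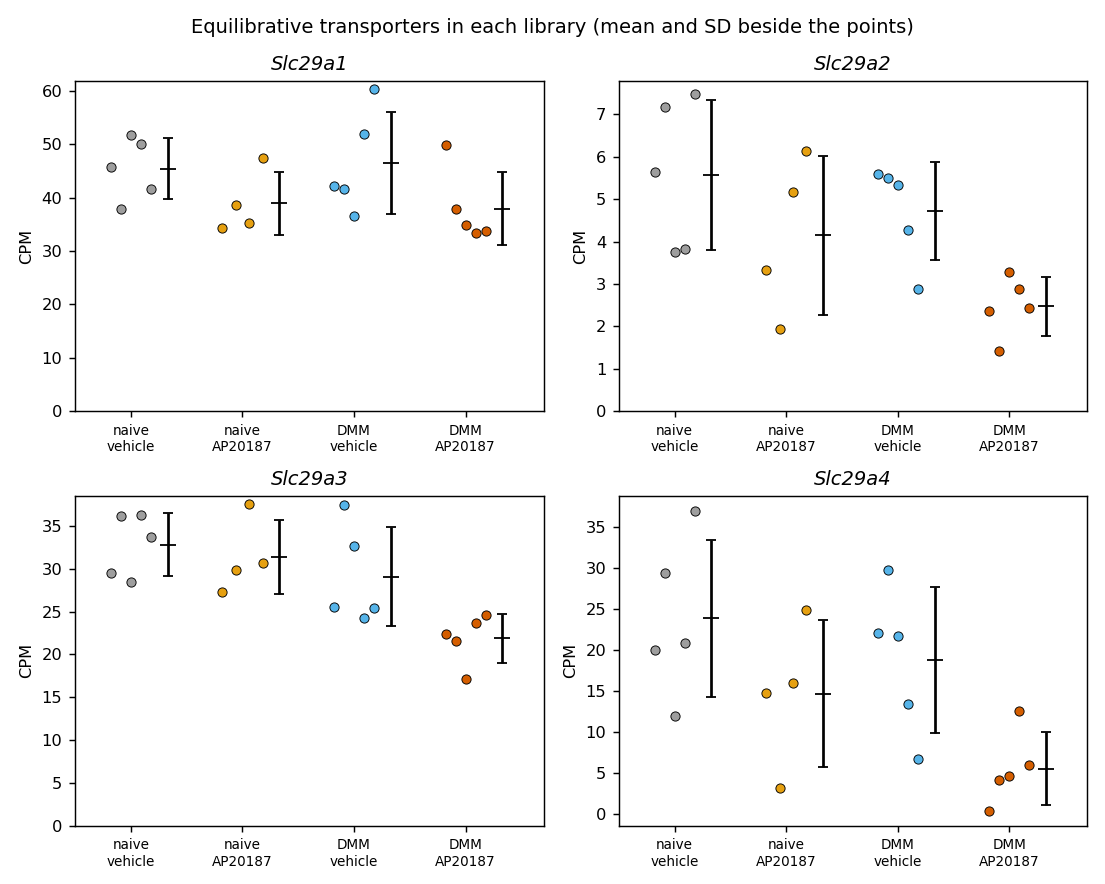
CPM of Slc29a1, Slc29a2, Slc29a3 and Slc29a4 (y axes) in each library of the 4 groups (x axis), with 1 point per mouse and the mean and SD beside the points. Slc29a4 spans 0.394 to 12.5 CPM in DMM AP20187 mice and 6.64 to 29.8 CPM in DMM vehicle mice, while the groups of Slc29a1 overlap throughout.

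The fall of Slc29a2 and Slc29a4 was read beside other marker lists, against the 11.3% of all tested genes that rose and 12.4% that fell in DMM mice and the 8.61% that rose and 2.57% that fell in naive mice. Of 11 sensory neuron markers, 6 fell in DMM mice and none passed in naive mice. The neuron sums of DMM AP20187 mice 58 to 62 were 1425, 2979, 3087, 5041 and 3365 CPM, and those of DMM vehicle mice 32, 33, 34, 63 and 64 were 9116, 9908, 7909, 7750 and 3976 CPM. Mouse 64 thus had the lowest neuron sum and the lowest Slc29a4 of the vehicle group, and in naive AP20187 mice mouse 3 had the lowest of both (1633 and 3.11 CPM).

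Of 7 early B-lineage markers, 6 fell in DMM and 5 in naive mice, with sums of 44.1 to 115 CPM in DMM AP20187, 155 to 197 in DMM vehicle, 69.0 to 149 in naive AP20187, where Igll1 was at 0, and 152 to 207 in naive vehicle mice. Of 7 erythroid markers, 5 fell in DMM mice and none in naive mice, with sums of 1296 to 5223, 1596 to 26681, 1942 to 4282 and 3335 to 13300 CPM in that order. Of 4 satellite glia markers, 1 fell in each comparison, with sums of 602 to 956, 662 to 1067, 700 to 1030 and 597 to 922 CPM. Of 6 central nervous system glia markers, none passed in DMM mice and 3 fell in naive mice, with sums of 34.3 to 47.2, 41.1 to 57.0, 22.0 to 42.8 and 44.0 to 51.4 CPM.

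Of 10 tested epithelial markers, 5 rose and 1 fell in DMM mice and 1 rose in naive mice, with sums of 45.0 to 133, 78.8 to 223, 75.6 to 177 and 151 to 245 CPM in that order. Among these, Krt14, Sftpc, Scgb3a1 and Scgb3a2 were at 0 in DMM vehicle mice and Krt5 and Scgb3a2 in naive AP20187 mice. The part of any of these cell types in the Slc29 values was not tested.

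**Figure D3:**
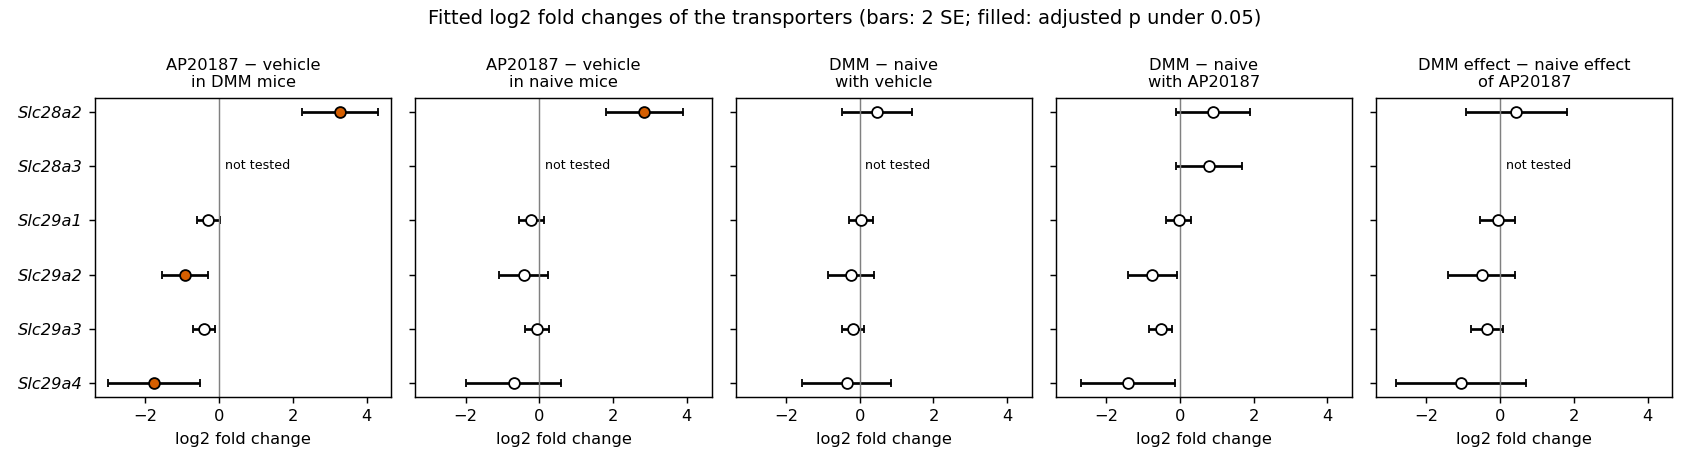
Fitted log2 fold changes (x axis) of the genes other than Slc28a1 (y axis) in 5 comparisons, with bars of 2 SE and filled points where the adjusted p was under 0.05. Slc28a2 is filled in both AP20187 comparisons at 3.28 and 2.85, Slc29a2 and Slc29a4 are filled in DMM mice only at -0.93 and -1.76, and Slc28a3 is shown only for DMM against naive with AP20187.

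FPKM, which divides by gene length, allows the levels of different genes to be compared. In both vehicle groups the mean FPKM fell in the order Slc29a1, Slc29a4 and Slc29a3, at 11.6, 6.44 and 4.96 in DMM vehicle and 11.1, 8.09 and 5.48 in naive vehicle mice. Each of these neighbours overlapped between libraries. Next were Slc28a2 at 1.82 and Slc29a2 at 1.54 in DMM vehicle mice, and Slc29a2 at 1.79 and Slc28a2 at 1.27 in naive vehicle mice, and these overlapped too.

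In DMM AP20187 mice Slc28a2 came first at 16.8 ± 5.35 FPKM and Slc29a1 next at 9.25, with overlapping libraries. Slc29a3 at 3.63, Slc29a4 at 1.85, Slc29a2 at 0.789 and Slc28a3 at 0.338 ± 0.114 FPKM followed. Slc29a3 overlapped with Slc29a4 and Slc29a4 with Slc29a2, while Slc29a3 lay below Slc29a1 and Slc28a3 below Slc29a2 in every library. In naive AP20187 mice Slc29a1 at 8.40 and Slc28a2 at 7.90 FPKM overlapped, ahead of Slc29a3 at 4.64, Slc29a4 at 4.51, Slc29a2 at 1.20 and Slc28a3 at 0.170 ± 0.0634 FPKM. All neighbours overlapped there except Slc29a2 and Slc28a3. Per length, Slc28a3 therefore had 2.04 ± 0.662% of the Slc28a2 level in DMM AP20187 mice and 2.38 ± 1.22% in naive AP20187 mice.

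The concentrative transporters made up 51.6 ± 8.84% of the summed FPKM of the 7 genes in DMM AP20187 mice (range 39.3% to 62.8%) and 6.82 ± 5.18% in DMM vehicle mice (2.20% to 15.4%). In naive mice they made up 30.5 ± 14.9% with AP20187 (15.6% to 44.4%) and 4.70 ± 2.60% with vehicle (2.00% to 7.51%). The AP20187 and vehicle libraries did not overlap in either. The summed FPKM of the 7 genes was 32.7 ± 5.64 in DMM AP20187, 26.4 ± 2.32 in DMM vehicle, 26.8 ± 3.35 in naive AP20187 and 27.7 ± 2.44 in naive vehicle mice. The 4 Slc29 genes alone summed to 15.5 ± 1.86, 24.5 ± 2.13, 18.7 ± 5.34 and 26.4 ± 2.77 FPKM in the same order. The share rests mainly on Slc28a2 and was not tested. FPKM relative to counts was up to 9.88% lower in naive AP20187 mice 1, 3 and 4, which lowers all 7 genes there alike and leaves shares as they are. The FPKM means and sums given for naive AP20187 mice carry this lowering.

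**Figure D4:**
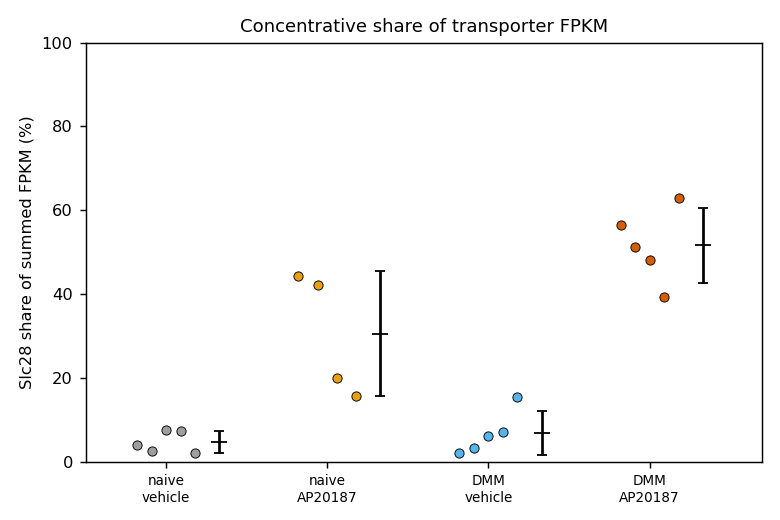
Share of the summed FPKM of the 7 nucleoside transporter genes that came from the Slc28 genes (y axis, percent) in each library of the 4 groups (x axis), with 1 point per mouse and the mean and SD beside the points. The lowest AP20187 share is 15.6% in naive mice and 39.3% in DMM mice, above the highest vehicle shares of 7.51% and 15.4%.

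DMM surgery was compared with no surgery within each injection. With vehicle, none of the 5 tested members passed, and 0% of all tested genes were called, although 541 genes were called with DMM vehicle mice 63 and 64 alone and 1 by DESeq2. The value for Slc28a2 was 0.46 on the log2 scale (adjusted p = 1.00, edgeR). With AP20187, none of the 6 tested members passed, and 0.702% of all tested genes did, or 160 genes, 60 of them higher in DMM mice. That count ran from 43 without DMM AP20187 mouse 59 to 1148, 946 of them higher, by limma on log2(FPKM + 1). FPKM relative to counts was lower in naive AP20187 mice 1, 3 and 4, and its part in the limma count was not tested. Before adjustment, Slc29a2, Slc29a3 and Slc29a4 were under 0.05 in this comparison, and no tested member was with vehicle; DESeq2 called no member in either. The log2 fold changes there were 0.89 for Slc28a2 (adjusted p = 0.379), -0.75 for Slc29a2 (adjusted p = 0.264) and -1.41 for Slc29a4 (adjusted p = 0.279). Slc29a3, at -0.52 (adjusted p = 0.119), was lower in all 5 DMM AP20187 mice than in all 4 naive AP20187 mice, as were 2.44% of all tested genes.

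The AP20187 effect in DMM mice minus that in naive mice passed for none of the 5 members and for 0.114% of all tested genes. The difference was -0.51 for Slc29a2 (adjusted p = 0.900, edgeR), -0.35 for Slc29a3 (adjusted p = 0.792) and -1.06 for Slc29a4 (adjusted p = 0.886). The falls of Slc29a2 and Slc29a4 that passed in DMM mice are therefore not shown to differ from the naive values.

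Other genes of nucleoside handling were read from lists chosen by pathway, and the calls in each list stand beside the 23.8% of all tested genes called in DMM mice and the 11.2% called in naive mice. Cells release ATP, ectonucleotidases cut it to adenosine outside the cell, receptors sense adenosine, and transporters return it for salvage or breakdown. Of 5 carriers of nucleotides and nucleobases, Slc17a9, Abcc4 and Slc43a3 rose and Panx1 fell in DMM mice, and Slc17a9 rose and Panx1 fell in naive mice. Their median log2 fold change was 0.61 and 0.34. Slc17a9, the vesicular nucleotide transporter, was at 23.2 ± 4.63 against 2.12 ± 1.84 CPM in DMM mice, which is 3.45 as a log2 fold change (SE 0.57, adjusted p = 0.000664, edgeR). The naive value was 3.02 (adjusted p = 0.00321). Panx1, a channel that releases ATP, had values of -1.22 in DMM mice (adjusted p = 0.00260) and -0.83 in naive mice (adjusted p = 0.0469). The naive Panx1 call held in 14 of 29 alternatives. Abcc4, an exporter of cyclic nucleotides, had 0.61 in DMM mice (adjusted p = 0.0454), which held in 15 of 30 alternatives and was lost with vehicle mice 32, 33 and 34 alone (0.44, adjusted p = 0.168) and without mouse 63 (adjusted p = 0.0884) or 64 (adjusted p = 0.0742), and 0.34 in naive mice (adjusted p = 0.325).

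Of 8 tested ectonucleotidases, Entpd1 rose and Acpp fell in DMM mice, and Entpd1 rose in naive mice, with list medians of -0.37 and -0.19. These 2 of 8 and 1 of 8 calls are near the shares over all tested genes, 23.8% and 11.2%. Entpd1 (CD39), which cuts ATP and ADP on immune cells, had values of 1.35 in DMM mice (adjusted p = 0.00627, edgeR) and 1.66 in naive mice (adjusted p = 0.00419). Acpp (Acp3), which makes adenosine from AMP on pain-sensing neurons, was at 173 ± 87.6 CPM with AP20187 and 498 ± 243 CPM with vehicle in DMM mice, or -1.53 on the log2 scale (adjusted p = 0.0148). The naive value was -1.09 (adjusted p = 0.112).

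Among the 4 adenosine receptors, Adora3 rose in both comparisons and Adora1 fell in DMM mice. Adora3, the A3 receptor of myeloid cells, was at 7.07 ± 1.51 against 0.896 ± 0.767 CPM in DMM mice, a log2 fold change of 2.98 (adjusted p = 0.00693, edgeR). The naive value was 3.28 (adjusted p = 0.00890). Adora1, the A1 receptor of sensory neurons, was at 25.1 ± 11.8 against 68.9 ± 38.0 CPM in DMM mice, a log2 fold change of -1.46 (adjusted p = 0.0174). That call was lost without vehicle mouse 33 and with vehicle mice 63 and 64 alone, and in naive mice the value was -0.76 (adjusted p = 0.249). Adora2a had log2 fold changes of -0.44 and -0.26 and Adora2b of -0.56 and -0.04 in DMM and naive mice, none past the threshold.

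Of 14 genes of purine salvage and breakdown, 9 rose and 3 fell in DMM mice, and 6 rose and 1 fell in naive mice, with list medians of 0.81 and 0.82. Over all tested genes 11.3% rose in DMM mice and 8.61% in naive mice. Ada, the adenosine deaminase, was at 59.0 ± 18.1 against 6.52 ± 3.06 CPM in DMM mice, which is 3.18 as a log2 fold change (SE 0.34, adjusted p = 2.41e-05, edgeR). For naive mice the value was 2.64 (adjusted p = 0.000186). Gda, the guanine deaminase, had 2.18 in DMM mice and 1.76 in naive mice, and Pnp2, a purine nucleoside phosphorylase, 2.02 and 1.70. Adk, the adenosine kinase that returns adenosine to AMP, fell in both.

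Ampd1, the AMP deaminase of skeletal muscle, had the largest fall of this list in DMM mice (log2 fold change -4.29, adjusted p = 0.0412), set by vehicle mouse 32 at 24.1 CPM. Without mouse 32 the value was 0.14. Mouse 32 had a skeletal muscle marker sum of 1766 CPM, and the other DMM vehicle libraries had 13.8 to 226 CPM. In naive mice Ampd1 went the other way, at 18.6 ± 3.26 CPM with AP20187 and 1.28 ± 1.41 CPM with vehicle, and did not pass. The muscle sums there were 1501 to 2311 CPM with AP20187 and 11.5 to 408 CPM with vehicle.

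Of 15 genes of pyrimidine and deoxynucleoside salvage, 3 rose (Upp1, Tk1 and Dctd) and 3 fell (Cda, Upp2 and Nt5m) in DMM mice, and Upp1 rose and Tymp fell in naive mice. The list medians were -0.21 and -0.07, and over all tested genes 23.8% and 11.2% were called, so the naive count of 2 of 15 is near that share. Upp1, the uridine phosphorylase, was at 21.5 ± 3.40 against 1.59 ± 0.943 CPM in DMM mice (log2 fold change 3.75, adjusted p = 4.87e-05, edgeR) and at 19.8 ± 7.91 against 1.37 ± 0.834 CPM in naive mice (3.85, adjusted p = 7.86e-05). Tk1, the thymidine kinase of dividing cells, had 1.42 in DMM mice (adjusted p = 0.0245) and 0.82 in naive mice (adjusted p = 0.228). The DMM call of Tk1 was lost without AP20187 mouse 58 or any of vehicle mice 32, 33 or 34 (adjusted p 0.0539 to 0.0635). Dctd, the dCMP deaminase, had 1.35 (adjusted p = 0.00327) and 0.81 (adjusted p = 0.0776). Tymp, the thymidine phosphorylase, had -1.51 in naive mice (adjusted p = 0.0134) and -0.29 in DMM mice (adjusted p = 0.566), and the naive call was lost without AP20187 mouse 1. With DMM vehicle mice 63 and 64 alone, the DMM calls of Panx1, Abcc4, Entpd1, Acpp, Adora1, Ampd1, Tk1 and Dctd were also lost. No gene of the 5 lists passed in DMM against naive or in the difference of effects.

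The genes whose log2 CPM was most like that of Slc28a3 over the 19 libraries, among 14719 genes ranked, were Ggt1 (Pearson's r = 0.986), Lipg (0.985), G6pdx (0.974) and Nos2 (0.973). The libraries fall apart by injection, and Slc28a3 was at 0 in all 10 vehicle libraries, so these values mostly reflect the step between AP20187 and vehicle and little can be read within groups. Lipg, the endothelial lipase, was at 340 ± 134 CPM in DMM AP20187 and 183 ± 85.0 CPM in naive AP20187 mice, against 2.38 ± 0.975 and 3.15 ± 0.546 CPM with vehicle. Nos2, the inducible nitric oxide synthase, was at 36.7 ± 15.0 and 18.7 ± 6.04 CPM with AP20187 and at a count of 0 in 4 of 5 libraries of each vehicle group. With Slc28a2 the r of Slc28a3 was 0.919.

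Slc28a2 was most like Baz1a (r = 0.995), Clec5a (0.994), a receptor of myeloid cells, and Tfec (0.993), and within groups these were 0.980, 0.968 and 0.970. Slc29a4 was most like Tcerg1l (0.985), Tmem150c (0.982) and Serinc2 (0.978), with 0.974, 0.979 and 0.962 within groups. The nearest genes were Rhob (0.859) for Slc29a1, Aen (0.946) for Slc29a2 and Mast2 (0.918) for Slc29a3. All these values describe 19 libraries that share groups and pools of cell types, and carry no test.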

How the data were processed

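Bulk poly(A) RNA-seq (stranded TruSeq, per the labels' protocols) of 19 libraries was used, 1 per mouse. The authors deposited a count and an FPKM value per gene and library. The submitters' processing notes name GRCm39, cutadapt, HISAT2 and StringTie, and versions are not given in the sources used here; nor is whether counting used strand, so antisense neighbours of a gene cannot be told apart from it. From the deposited counts, differences were tested with edgeR 4.0.16 (R 4.3.3): TMM scaling, filterByExpr with a minimum count of 10, which left 22778 genes, and quasi-likelihood tests in 1 model of the 4 groups, two-sided, with Benjamini-Hochberg adjustment over all genes and a threshold of 0.05. Slc28a1 did not pass the filter. CPM uses TMM library sizes. Counts gather at multiples of 4 (36.4% to 43.2% of low counts per library, against 25% with no step). Naive AP20187 mice 1, 3 and 4 had the lowest shares, 36.4% to 36.9%. Why was not tested, and the limit of 12 counts for a count of 0 was set after seeing the data. No 2 libraries of a group agree within sampling noise. Alternatives were DESeq2 1.42.0, limma 3.58.1 on log2(FPKM + 0.1) or log2(FPKM + 1), no TMM, no filter, only the compared groups, mouse subsets, a replicate block and leaving out each library; counts divided by 4 were added later.

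All 7 members were named. Of each pathway list, per comparison, up to 3 called genes with the largest change, given 1 CPM or more on average in either group, were described by value, with all 4 adenosine receptors; Adk was added after its values were seen. The members, lists and rules were chosen with earlier results of these data known. Promoters are from RefSeq (GRCm38.p6), where all 7 members matched by symbol; coordinates of genes are from the deposited table.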

Additional observations from a re-analysis of the deposited data

Results flagged for a closer look

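In 5 of 25 groups examined, 1 library stood apart from the others of its group for a transporter. Chance flags about 1 in 20 groups of continuous values; in the 3 Slc28a1 groups a single library above 0 stands apart by construction. Slc28a1 was at 0.408 CPM in DMM AP20187 mouse 62, at 0.179 CPM in DMM vehicle mouse 33 and at 0.0622 CPM in naive vehicle mouse 2, with all other libraries of those groups at a count of 0. Slc28a3 was lowest in DMM AP20187 mouse 61, at 1.17 CPM against 2.90 to 3.33 CPM in the other 4. Slc29a1 was highest in DMM AP20187 mouse 58, at 49.8 CPM against 33.3 to 37.9 CPM.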

How the results depend on the processing

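Of 5 tested members, 3 were called in DMM mice, and 1 was called with vehicle mice 63 and 64 alone and with no filter on low counts; leaving out 1 library gave 1 to 4. In DMM against naive with AP20187 the count of 0 became 1 by limma on log2(FPKM + 1) without a filter (Slc28a3, log2 fold change 0.19, adjusted p = 0.0488). That fit carries the lower FPKM of naive AP20187 mice 1, 3 and 4, whose part in the call was not tested. With a limit of 3 counts the bounds for Slc28a3 were 61.1-fold and 35.9-fold. The Slc28a2 calls with AP20187 held in all 30 alternatives in DMM and 29 in naive mice. Slc29a4 was also lost in DMM mice with only the compared groups (adjusted p = 0.0774), and Slc29a3 passed without TMM (0.0357), by DESeq2 (0.0428) and by limma with 0.1 (0.0451) or 1 (0.0461) added.

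Signs of values that did not pass turned as follows. In DMM against naive with vehicle, Slc28a2 was -0.35 with mice 32, 33 and 34 alone and -0.11 without vehicle mouse 64 (-0.11 to 0.72 over single libraries left out); Slc29a1 was -0.18 with mice 32 to 34, -0.01 without mouse 63, -0.077 without mouse 64 and -0.02 without naive vehicle mouse 2 (-0.077 to 0.11); Slc29a4 was 0.042 with mice 32 to 34. With AP20187, Slc29a1 was 0.000596 by DESeq2, 0.054 without TMM, 0.13 and 0.12 by limma with 0.1 and 1 added, and 0.0066, 0.0022 and 0.065 without DMM mice 61 or 62 or naive mouse 5 (-0.15 to 0.065). For the difference of effects, Slc28a2 was -0.34 with mice 63 and 64 alone, and Slc29a1 was 0.14 with mice 32 to 34, 0.084 and 0.074 by limma, 0.04 without DMM vehicle mouse 64 and 0.047 without naive AP20187 mouse 5 (-0.19 to 0.047). Ampd1, called in DMM mice, was 0.14 without vehicle mouse 32 (-5.20 to 0.14). The cause of these turns was not tested.

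Over all genes, 5410 calls in DMM mice became 1156 with mice 63 and 64 alone and 8450 with mice 32 to 34. In DMM against naive with AP20187, 160 became 43 to 1148, and the difference of effects went from 26 to 12 without DMM AP20187 mouse 60 and to 237 by DESeq2. In naive mice 2548 became 994 without AP20187 mouse 3 and 4367 by DESeq2. Of the 2548, 1962 were higher, against 1643 of 4063 by limma with 0.1 added and 1594 of 3958 with 1 added. The limma fits carry the lower FPKM of naive AP20187 mice 1, 3 and 4, whose part in these counts was not tested. Naive groups share mouse numbers 1, 3, 4 and 5, and same-numbered libraries deviated together with correlations of 0.02, 0.30, -0.08 and 0.18. These few pairs cannot decide whether the numbers pair the samples. With the replicate block 1 member was called (Slc28a2, log2 fold change 2.72, adjusted p = 0.0158, edgeR) and 2352 genes in all, and the naive calls of Tymp and Panx1 were lost. Counts divided by 4 changed no member's call. At this depth a gene under about 0.2 CPM cannot be told from 0.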
